A study of Mus musculus with 26 samples.

Results

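Genes of cell division were followed in brown adipose tissue (BAT): 34 genes of S phase and mitosis, chosen by name from the 50686 genes of the count table, with the Ensembl identifiers matched to mouse symbols. All 34 had an entry. Of these, 33 had enough reads to be tested, and Cdc25c, the phosphatase that switches on Cdk1, did not (0 to 6 counts per mouse). RNA-sequencing was carried out on supraclavicular BAT from 26 male C57BL/6J mice, 12 to 16 weeks old, housed one per cage and kept at thermoneutrality for 2 weeks. The labels give this temperature as 30 °C and the study's methods as 29 °C, and the latter is used here. The groups were 7 control littermates (WT) and 7 mice labelled Afadin KO (FAKO) at 29 °C, and 5 control littermates and 7 mice labelled FAKO that spent a further 6 h at 5 °C. The FAKO mice carried Mllt4 flox/flox with Cre under the Adiponectin promoter, which is active in adipocytes of brown and white fat, so the other cells of BAT keep the gene.

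Cells copy their DNA in S phase and separate it in mitosis. Cyclin E opens S phase, and ribonucleotide reductase and thymidylate synthase supply the nucleotides. Cyclins A and B with the kinase Cdk1 then drive mitosis, in which Plk1 and the Aurora kinases build the spindle, the checkpoint proteins hold the cell until each chromosome is attached, and motor proteins and the cytokinesis ring divide the cell. The mRNAs of most mitotic genes are made only in dividing cells, under the E2F factors, the DREAM complex, B-Myb and FoxM1. Mature brown adipocytes rarely divide. In cold-exposed BAT, preadipocytes and endothelial cells are known to start dividing, usually after days in the cold.

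Promoters are shown first for 7 members, as the regulators above act there. Of the 34 members, 28 have a promoter in the RefSeq table (GRCm38.p6, 250 bases before to 50 after the transcript start). The table lacks Ccna2, Ccne2, Cdc25c, Aurkb, Kif20a and Tpx2. Top2a (chr11:99024190-99024439), Mki67 (chr7:135716380-135716629) and Cdk1 (chr10:69352939-69353162), all on the minus strand, were chosen as the best known proliferation markers. Rrm1 (chr7:102441445-102441694, plus strand), Mad2l1 (chr6:66534971-66535220, plus strand), Ccne1 (chr7:38107535-38107740, minus strand) and Tyms (chr5:30073626-30073875, minus strand) are among the members with the clearest cold differences. Each stretch lies before the start of its gene in both RefSeq and GENCODE, and capitals mark the motif letters that were searched, on either strand.
Top2a: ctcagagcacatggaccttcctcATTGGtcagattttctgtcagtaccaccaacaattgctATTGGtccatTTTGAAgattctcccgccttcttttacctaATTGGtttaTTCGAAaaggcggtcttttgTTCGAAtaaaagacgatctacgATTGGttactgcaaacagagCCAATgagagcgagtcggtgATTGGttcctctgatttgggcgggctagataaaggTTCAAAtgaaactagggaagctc
Mki67: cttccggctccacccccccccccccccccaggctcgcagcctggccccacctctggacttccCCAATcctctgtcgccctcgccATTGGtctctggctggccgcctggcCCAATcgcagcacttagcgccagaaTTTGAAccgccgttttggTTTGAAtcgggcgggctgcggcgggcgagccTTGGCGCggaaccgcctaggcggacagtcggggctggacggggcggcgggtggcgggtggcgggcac
Cdk1: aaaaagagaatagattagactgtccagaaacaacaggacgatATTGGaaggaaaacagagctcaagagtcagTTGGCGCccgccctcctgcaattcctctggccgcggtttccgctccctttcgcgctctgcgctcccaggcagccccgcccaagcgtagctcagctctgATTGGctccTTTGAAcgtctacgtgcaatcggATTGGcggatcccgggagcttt
Rrm1: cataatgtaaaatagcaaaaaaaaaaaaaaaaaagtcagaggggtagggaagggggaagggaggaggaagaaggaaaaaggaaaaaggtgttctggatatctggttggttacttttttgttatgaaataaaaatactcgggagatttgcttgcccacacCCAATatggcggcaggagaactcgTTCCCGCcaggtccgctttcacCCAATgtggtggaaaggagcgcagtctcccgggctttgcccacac
Mad2l1: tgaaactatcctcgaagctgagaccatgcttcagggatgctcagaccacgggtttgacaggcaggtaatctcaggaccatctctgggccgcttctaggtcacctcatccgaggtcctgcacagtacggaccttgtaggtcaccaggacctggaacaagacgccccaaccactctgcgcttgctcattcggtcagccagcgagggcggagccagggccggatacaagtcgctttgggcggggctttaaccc
Ccne1: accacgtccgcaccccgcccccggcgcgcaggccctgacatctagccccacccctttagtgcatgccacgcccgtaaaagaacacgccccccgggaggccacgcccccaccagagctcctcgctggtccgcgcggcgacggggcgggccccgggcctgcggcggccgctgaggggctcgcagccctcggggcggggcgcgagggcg
Tyms: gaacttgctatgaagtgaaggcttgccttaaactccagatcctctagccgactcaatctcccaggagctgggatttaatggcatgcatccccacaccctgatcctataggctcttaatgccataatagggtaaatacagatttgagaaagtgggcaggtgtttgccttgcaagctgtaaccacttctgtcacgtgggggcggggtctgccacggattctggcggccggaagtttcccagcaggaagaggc
The words searched were TTTGAA or TTCGAA for the cell cycle genes homology region, which DREAM and FoxM1 bind, CCAAT for the NF-Y site, and TTCCCGC or TTGGCGC for E2F. Over windows of 300 bases, the homology region was found in 21 of 30 member promoters (70.0%) and in 19.2% of the 32851 promoters in the table. CCAAT was found in 24 of 30 (80.0%, against 37.4%), the E2F words in 6 of 30 (20.0%, against 6.81%), and the homology region with CCAAT in 20 (66.7%, against 7.52%). Among 89 matches, 4 pairs overlapped. The Top2a stretch above holds 4 homology words and 6 CCAAT words, whereas those of Mad2l1, Ccne1 and Tyms hold none of the words. For Mad2l1, the GENCODE start (base 66535390) lies past the end of the window, so the bases next to that start were not searched. Cenpa, not printed here, is also among the members with the clearest cold differences. Its promoter holds a homology word at base 17 after the start and CCAAT words 109 and 86 bases before it.

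**Figure D1:**
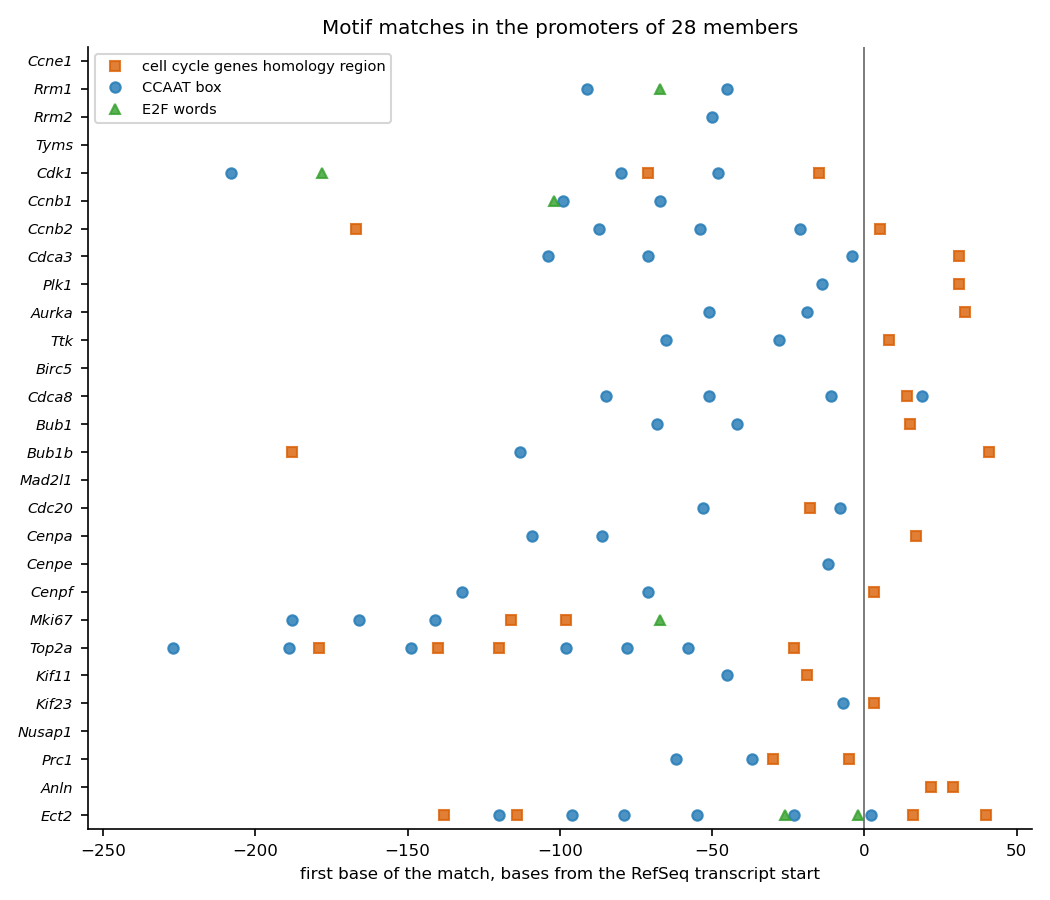
Position of the first base of each motif match, in bases from the RefSeq transcript start, for 28 members in order of role. CCAAT words lie mostly within 150 bases before the start, and Ccne1, Tyms, Birc5, Mad2l1 and Nusap1 hold no match.

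The 34 members were at a low level in BAT. Their summed counts were 1336 to 2585 per mouse, of library totals between 12705969 and 25732258 (median 17237377). In CPM (counts scaled to library size with TMM factors), the mean over all mice had a median of 1.93 across tested members and 8.40 across all 17286 tested genes, and 10 tested members were below 1 CPM. Rrm1, the large subunit of ribonucleotide reductase, with the proliferation antigen Mki67 and the topoisomerase Top2a made up 35.7% to 58.4% of the members' summed CPM. Per kilobase of exon, the order of mean levels was Rrm1 at 2.48 CPM per kb, Ccne2 at 1.29, Mki67 at 1.05, Tyms at 0.885 and Top2a at 0.746, and it ended with Cdca8 at 0.103 and Cdc25c at 0.0223. The median biological coefficient of variation between mice of a group was 0.239 in members and 0.148 in all tested genes. Low genes vary more, and the trend over all genes at the members' levels had a median of 0.289. Single members lay on either side of the trend at their own level. Mki67 (0.304 against 0.202) and Top2a (0.299 against 0.228) lay above it, and Nusap1 (0.145 against 0.280) lay below.

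Checks of the labels came out in different ways. Ucp1, the uncoupling protein of brown fat, was at a median of 1004 CPM in control mice at 29 °C and 15960 CPM at 5 °C. The other brown adipocyte markers were detected in every mouse, except Elovl3, which had no count in 1 mouse labelled FAKO at 29 °C. Afdn, the gene targeted in FAKO mice, was at 151 to 214 CPM in control mice and 154 to 231 CPM in mice labelled FAKO at 29 °C (log2 fold change -0.01 ± 0.08 SE), and it was at 67.9 to 79.2 CPM and 53.3 to 65.3 CPM at 5 °C (-0.33 ± 0.09, adjusted p = 0.116). The FAKO groups are therefore called by their labels. This check covers gene-level RNA of the whole tissue, in which other cells keep the gene. At the protein level, the study reports that cold raised Afadin less in BAT of FAKO mice than in that of controls.

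Cold had both higher and lower members in control mice. By the quasi-likelihood test of edgeR, adjusted over all genes after Benjamini and Hochberg, 11 of 33 tested members fell (33.3%) and 3 rose (9.09%), while 65% of all tested genes passed, 31.6% upward and 33.4% downward. The share that fell is near that of all genes, and the share that rose is lower. The median log2 fold change was -0.39 over the members and -0.01 over all tested genes. In mice labelled FAKO, 14 members fell (42.4%) and 2 rose (6.06%), while 68.6% of all genes passed (33.7% upward, 34.9% downward). There the median was -0.42 over members and -0.03 over all genes. In bulk tissue, fewer cells of a type and less RNA per cell cannot be told apart.

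**Figure D2:**
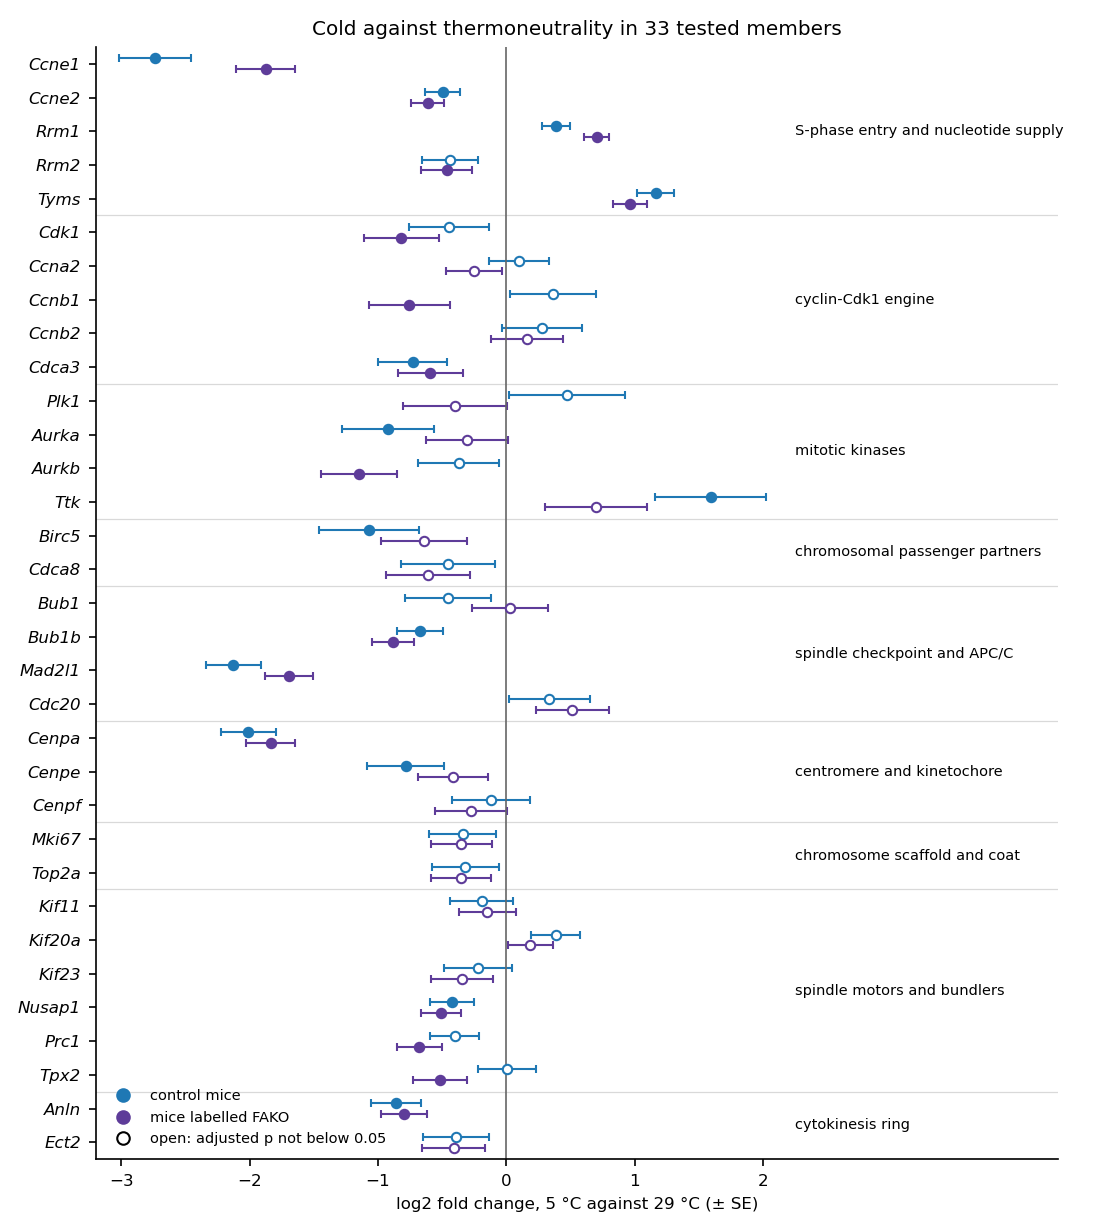
Log2 fold change (x axis, ± SE) of 33 tested members at 5 °C against 29 °C, by role, in control mice (5 against 7) and in mice labelled FAKO (7 against 7). Ccne1, Mad2l1 and Cenpa lie farthest to the left in both, and Tyms and Ttk farthest to the right in control mice.

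Of the genes for S-phase entry, Ccne1, which encodes cyclin E1, changed most. In control mice, its level ran from 1.56 to 3.71 CPM (median 2.89) at 29 °C and was 0.356, 0.348, 0.343, 0.364 and 0.634 CPM in the 5 mice at 5 °C. All cold mice were below all warm mice. The log2 fold change was -2.74 ± 0.28 (adjusted p = 2.36e-09), which is 6.67-fold lower. With the FAKO label, it ran from 1.51 to 3.70 CPM (median 2.55) at 29 °C and from 0.363 to 1.01 CPM (median 0.769) at 5 °C. These groups did not overlap either (-1.88 ± 0.23, adjusted p = 6.11e-08). The cold libraries hold 5 to 18 Ccne1 counts each. Its paralog Ccne2, cyclin E2, was at 3.12 to 6.70 CPM (median 5.16) in control mice at 29 °C and at 2.97, 3.55, 3.52, 3.95 and 4.49 CPM at 5 °C. It fell by less, and the control groups overlapped (-0.50 ± 0.14, adjusted p = 0.00283). Under the FAKO label, Ccne2 went from 5.02 to 5.81 CPM (median 5.18) down to 2.90 to 3.78 CPM (median 3.57), with no overlap (-0.61 ± 0.13, adjusted p = 0.000122).

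The enzymes of nucleotide supply did not move together. Tyms, thymidylate synthase, ran from 2.82 to 3.85 CPM (median 3.12) in control mice at 29 °C and was 6.17, 8.92, 7.51, 6.13 and 8.07 CPM at 5 °C. Every cold mouse was above every warm mouse (1.16 ± 0.14, adjusted p = 6.75e-08), a 2.24-fold rise. In mice labelled FAKO it rose from 2.67 to 5.11 CPM (median 3.72) to 5.79 to 8.76 CPM (median 7.77), again without overlap (0.96 ± 0.13, adjusted p = 3.26e-07). Rrm1 ran from 21.8 to 24.5 CPM (median 23.3) and was 30.2, 28.7, 31.0, 33.2 and 27.7 CPM in the cold control mice. Those groups did not overlap, and the rise was 1.31-fold (0.39 ± 0.11, adjusted p = 0.00271). With the FAKO label, Rrm1 was at 20.5 to 23.3 CPM (median 20.9) at 29 °C and 22.6 to 45.9 CPM (median 37.4) at 5 °C. The lowest cold mouse lay within the warm range (0.70 ± 0.10, adjusted p = 6.44e-07). Rrm2 encodes the small subunit of the same enzyme, the one that is made in S phase. It ran from 1.56 to 3.01 CPM (median 2.24) in control mice at 29 °C and was 1.13, 1.95, 2.19, 1.71 and 1.15 CPM at 5 °C, with overlap (-0.44 ± 0.22, adjusted p = 0.0828). Under the FAKO label, Rrm2 was at 1.19 to 2.95 CPM (median 2.38) and 1.20 to 2.17 CPM (median 1.57), also with overlap (-0.47 ± 0.20, adjusted p = 0.0427).

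**Figure D3:**
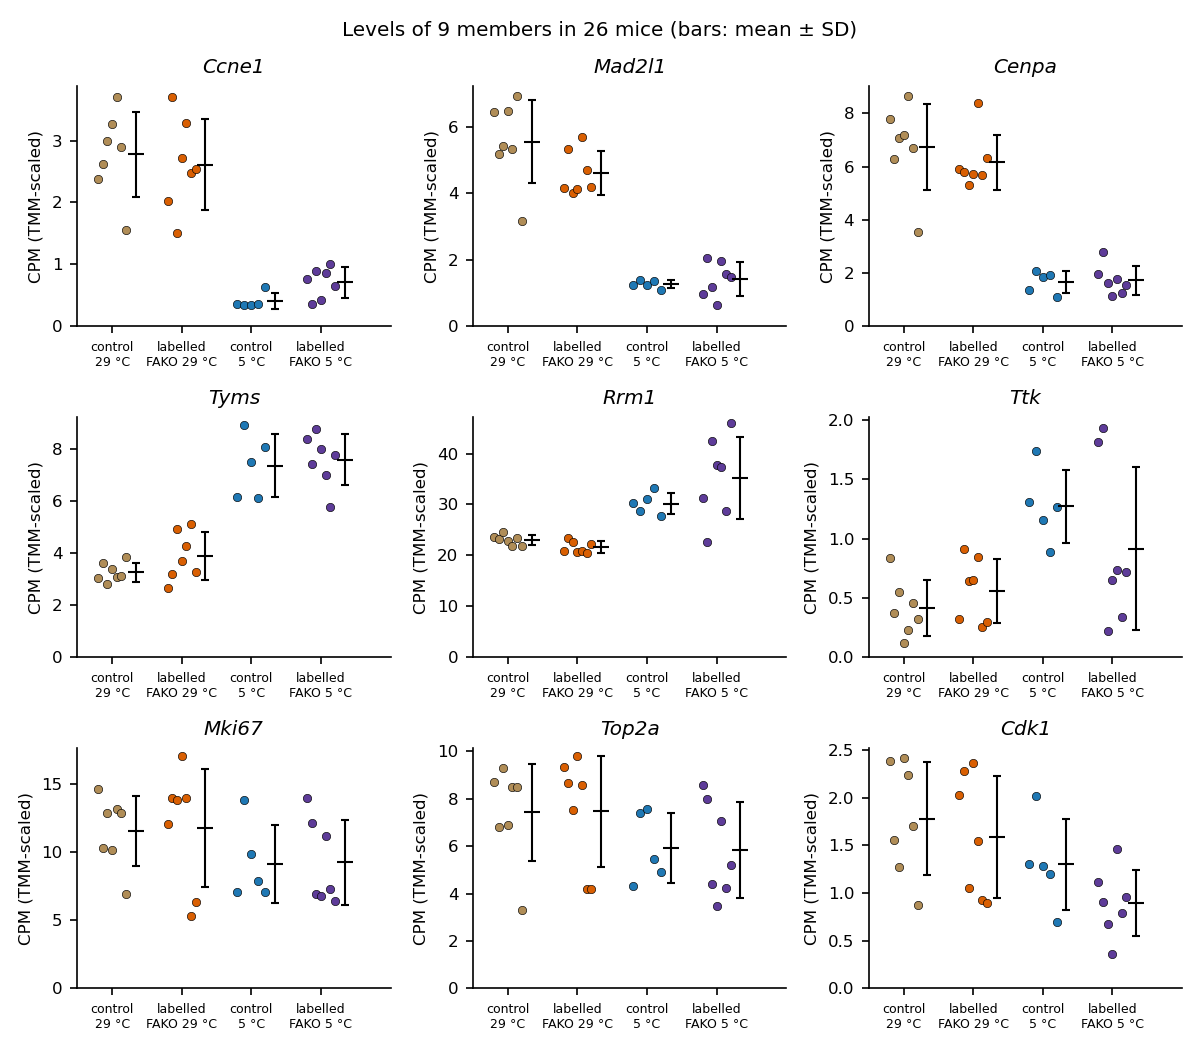
CPM of 9 members in each of the 26 mice (points), with the mean ± SD of each group beside them. Ccne1, Mad2l1 and Cenpa are lower and Tyms is higher in all cold mice than in all warm mice of the same label, whereas Mki67, Top2a and Cdk1 overlap.

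Of the 5 tested genes of the mitotic engine, 1 fell in control mice (20%, against 33.4% of all genes). In mice labelled FAKO 3 fell (60%, against 34.9%). Cdk1 ran from 0.872 to 2.42 CPM (median 1.70) in control mice at 29 °C and was 1.30, 2.02, 1.29, 1.20 and 0.691 CPM at 5 °C, an overlap (-0.45 ± 0.31, adjusted p = 0.211). In mice labelled FAKO it ran from 0.899 to 2.36 CPM (median 1.55) and from 0.357 to 1.46 CPM (median 0.907), and it fell with overlap (-0.82 ± 0.29, adjusted p = 0.0162). Ccnb1, cyclin B1, was measured with 2 to 32 counts per mouse. It was at 0.423 to 0.874 CPM (median 0.681) in control mice at 29 °C and at 1.01, 0.906, 0.601, 0.728 and 1.04 CPM at 5 °C (0.36 ± 0.33, adjusted p = 0.351). With the FAKO label, it was at 0.407 to 1.5 CPM (median 0.885) and 0.119 to 0.839 CPM (median 0.484), with overlap (-0.76 ± 0.32, adjusted p = 0.0362). Cdca3, a trigger of mitotic entry, fell under both labels (-0.73 and -0.59). Ccna2, cyclin A2, and Ccnb2, cyclin B2, did not pass in either, with log2 fold changes from -0.25 to 0.28.

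Of the mitotic kinases, Ttk and Aurkb stood out. Ttk (Mps1), the kinase that starts the spindle checkpoint, was at 0.121 to 0.838 CPM (median 0.374) in control mice at 29 °C and at 1.30, 1.74, 1.16, 0.883 and 1.27 CPM at 5 °C. Every cold control mouse was above every warm one, at 17 to 27 counts against 2 to 13 (1.59 ± 0.43, adjusted p = 0.00215). Under the FAKO label, Ttk was at 0.258 to 0.913 CPM (median 0.640) and 0.225 to 1.93 CPM (median 0.717), with overlap (0.70 ± 0.40, adjusted p = 0.119). Aurkb, Aurora B, was at 0.437 to 0.826 CPM (median 0.609) in control mice at 29 °C and at 0.356, 0.697, 0.601, 0.520 and 0.288 CPM at 5 °C (-0.37 ± 0.32, adjusted p = 0.310). In mice labelled FAKO it fell from 0.465 to 1.17 CPM (median 0.757) to 0.119 to 0.732 CPM (median 0.359), and the groups overlapped (-1.15 ± 0.29, adjusted p = 0.00121). Aurka, Aurora A of the spindle poles, fell in control mice (-0.92) and was at -0.31 in mice labelled FAKO, where it did not pass. Plk1 did not pass in either (0.47 and -0.40), at 1 to 13 counts per mouse.

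Birc5 (survivin) and Cdca8 (borealin) join Aurkb in the chromosomal passenger complex. Birc5 was at 0.423 to 1.16 CPM (median 0.794) in control mice at 29 °C and at 0.237, 0.557, 0.515, 0.104 and 0.346 CPM at 5 °C, with overlap (-1.07 ± 0.39, adjusted p = 0.0180). With the FAKO label, it was at 0.258 to 1.18 CPM (median 0.705) and 0.179 to 0.749 CPM (median 0.536), and it did not pass (-0.64 ± 0.34, adjusted p = 0.0919). Cdca8 did not pass under either label (-0.45 and -0.61).

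The checkpoint held the second large change. Mad2l1, the Mad2 protein that blocks Cdc20, ran from 3.17 to 6.92 CPM (median 5.43) in control mice at 29 °C and was 1.25, 1.39, 1.24, 1.35 and 1.09 CPM at 5 °C. No mice overlapped, and the level was 4.37-fold lower (-2.13 ± 0.21, adjusted p = 1.88e-09). Under the FAKO label, Mad2l1 fell from 4.02 to 5.68 CPM (median 4.19) to 0.655 to 2.06 CPM (median 1.49), also without overlap (-1.69 ± 0.19, adjusted p = 1.04e-08). Bub1b (BubR1), its partner in the checkpoint complex, fell under both labels (-0.67 and -0.88), and the FAKO groups did not overlap. Bub1, the kinase that recruits them (-0.46 and 0.03), and Cdc20, the activator of the anaphase-promoting complex (0.33 and 0.51), did not pass.

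Cenpa, the histone variant that marks the centromere, fell about as far as Mad2l1. It ran from 3.53 to 8.65 CPM (median 7.09) in control mice at 29 °C and was 1.36, 2.09, 1.85, 1.92 and 1.09 CPM at 5 °C. The groups did not overlap, and the level was 4.03-fold lower (-2.01 ± 0.22, adjusted p = 5.96e-09). In mice labelled FAKO it went from 5.30 to 8.41 CPM (median 5.78) down to 1.13 to 2.78 CPM (median 1.65), again without overlap (-1.84 ± 0.19, adjusted p = 3.02e-09). Of the kinetochore proteins, the motor Cenpe fell in control mice (-0.78) and did not pass in mice labelled FAKO (-0.42), and Cenpf did not pass in either (-0.12 and -0.28).

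The markers used most often to count dividing cells did not pass in either comparison with all mice. Mki67 was at 6.93 to 14.6 CPM (median 12.8) in control mice at 29 °C and at 7.06, 13.8, 9.87, 7.85 and 7.09 CPM at 5 °C. All 5 cold values lay within the warm range (-0.34 ± 0.26, adjusted p = 0.260). With the FAKO label, it was at 5.32 to 17.0 CPM (median 13.8) and 6.39 to 14.0 CPM (median 7.25), with overlap (-0.35 ± 0.24, adjusted p = 0.191). Top2a, which untangles chromosomes, was at 3.30 to 9.30 CPM (median 8.50) in control mice at 29 °C and at 4.33, 7.39, 7.55, 5.46 and 4.90 CPM at 5 °C (-0.32 ± 0.26, adjusted p = 0.285). Under the FAKO label, Top2a was at 4.18 to 9.79 CPM (median 8.60) and 3.46 to 8.60 CPM (median 5.20), with overlap (-0.35 ± 0.24, adjusted p = 0.187). These values rest on 58 to 183 counts per mouse for Top2a and 92 to 297 for Mki67.

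Among spindle motors and bundlers, Nusap1, a microtubule-bundling protein, fell under both labels (-0.42 and -0.51). Prc1, which bundles the central spindle, fell in mice labelled FAKO (-0.68) and did not pass in control mice (-0.40, adjusted p = 0.0683). Tpx2, which activates Aurora A, likewise fell in mice labelled FAKO (-0.52) and was at 0.00 in control mice. The motors Kif11, Kif20a and Kif23 did not pass under either label, with log2 fold changes from -0.35 to 0.38. In the cytokinesis ring, Anln (anillin) fell under both labels (-0.86 and -0.79), and the exchange factor Ect2 did not pass (-0.39 and -0.41).

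Across both cold comparisons, 8 members fell under both labels (Ccne1, Ccne2, Cdca3, Bub1b, Mad2l1, Cenpa, Nusap1 and Anln) and 2 rose under both (Rrm1 and Tyms). These are 24.2% and 6.06% of the tested members, where 28.5% of all genes fell under both and 27.4% rose under both. A further 3 fell in control mice alone, 6 fell in mice labelled FAKO alone, Ttk rose in control mice alone, and 13 passed in neither. These are counts of calls. The shares of all genes that passed under 1 label alone, or under neither, were not computed. No difference between labels is therefore read from these counts. The difference of the cold responses passed for none of the members, as given below. Groups without overlap were seen for 3 members downward and 3 upward in control mice, where 22.9% and 23.5% of all genes had no overlap. In mice labelled FAKO, 5 members were apart downward and 1 upward, where the shares of all genes were 19.3% and 21.1%. Of the 28 members with a promoter, the homology region was found in 11 of the 11 that passed in neither cold comparison and in 8 of the 17 that passed in at least 1. This split was made after the values were seen and was not tested. It also follows role. The S-phase members with a promoter, Ccne1, Rrm1, Rrm2 and Tyms, hold no homology word and are all among the 17. Ccne1, Mad2l1 and Tyms, whose stretches were printed above without capitals, are among the 17. So is Cenpa, whose promoter holds homology and CCAAT words.

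Several calls were lost or gained when 1 mouse was left out. In control mice, 9 of the 14 calls held when any 1 mouse of the 26 was left out. Nusap1 lost its call without mouse 1, 5, 17, 19 or 21 (log2 fold change -0.39 to -0.36, adjusted p = 0.0598 to 0.0819) and Cenpe without mouse 3, 16, 19 or 21 (-0.74 to -0.64, 0.0550 to 0.0798). Aurka lost its call without mouse 16 or 18 (-0.85 and -0.82), Cdca3 without mouse 16 (-0.57, 0.0707) and Birc5 without mouse 19 (-0.83, 0.0653). With the FAKO label, 12 of 16 calls held. Rrm2 lost its call without mouse 8, 9, 10, 11, 22, 23, 26, 27 or 28 (-0.48 to -0.38), Ccnb1 without mouse 9, 12, 23, 24, 25 or 28 (-0.75 to -0.59), Cdca3 without mouse 10, 22, 25, 27 or 28 (-0.57 to -0.51) and Tpx2 without mouse 11, 12, 25, 26 or 28 (-0.50 to -0.40). In these edgeR fits, the highest adjusted p was 0.104. Other members gained a call when 1 mouse was left out. Without mouse 13, Mki67 (-0.51, adjusted p = 0.0427), Birc5 (-0.83) and Cdca8 (-0.75) fell in mice labelled FAKO, as did Ect2 without mouse 22 (-0.61) and Cdca8 without mouse 23 (-0.79), and Cdc20 rose without mouse 27 (0.66). In control mice, Rrm2 fell without mouse 7, 13 or 18 (-0.58 to -0.46) and Prc1 without mouse 7 or 14 (-0.50 and -0.43). Scaling by library size alone moved the median of all genes to -0.14 in control mice and -0.34 in mice labelled FAKO. With that scaling, 22 members fell in mice labelled FAKO, Mki67 and Top2a among them (both -0.64), and 3223 of the 11607 genes that passed rose. With TMM factors, 5825 of 11860 rose. In control mice these were 4165 of 10408 with library size alone and 5454 of 11233 with TMM factors. Relative to the median of all genes, both scalings place the members' median lower by about the same amount (-0.73 against -0.34, and -0.42 against -0.03).

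Summed over the 29 genes of G2 and mitosis, the level was 46.9 to 83.3 CPM (median 78.3) in control mice at 29 °C and 44.9, 66.9, 57.8, 48.6 and 42.1 CPM in control mice at 5 °C. Under the FAKO label, it was 46.9 to 85.5 CPM (median 73.8) at 29 °C and 35.4 to 66.0 CPM (median 42.1) at 5 °C. The groups overlapped under both labels. Among warm controls, mouse 7 was the lowest at 46.9 CPM and mouse 2 the next at 66.7 CPM, just below cold control mouse 17. Among warm mice labelled FAKO, mice 13 and 14 were the lowest, at 46.9 and 52.3 CPM. The sum of the 5 S-phase genes, most of it Rrm1, went the other way, from medians of 36.6 and 35.7 CPM at 29 °C to 43.5 and 50.4 CPM at 5 °C. All 5 cold control mice and 6 of 7 cold mice labelled FAKO were above every warm mouse of their label.

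**Figure D4:**
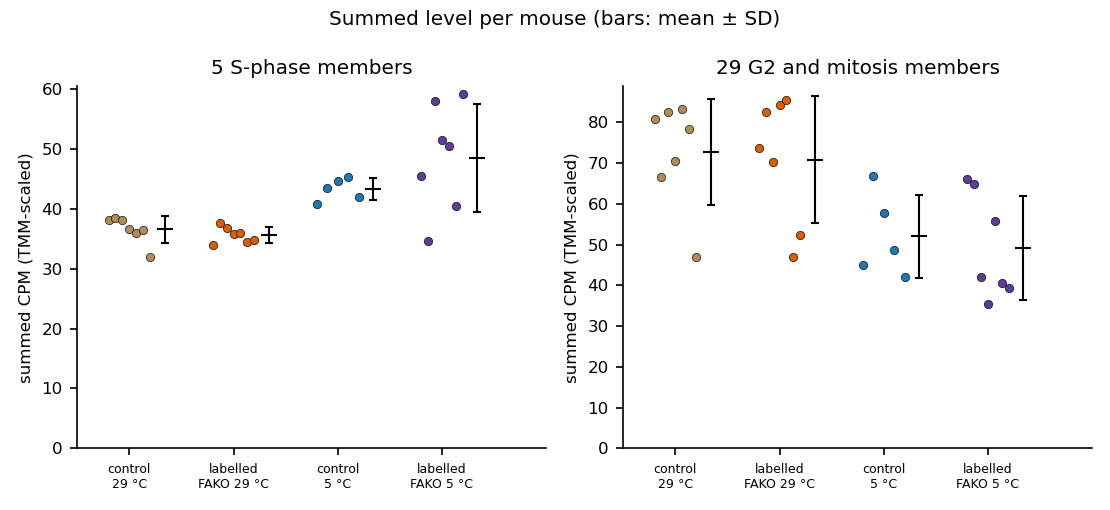
Summed CPM of the 5 S-phase members (left) and the 29 G2 and mitosis members (right) in each mouse (points), with the mean ± SD of each group. The S-phase sum is higher in 5 of 5 cold control mice than in all warm controls, and the mitotic sum is below every warm mouse of its label in 2 of 5 cold control mice and 4 of 7 cold mice labelled FAKO.

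Some mice lay at one end of their group for many members. Mouse 7 was the lowest of the 7 warm control mice for 18 of the 29 mitotic members, mouse 13 was the lowest warm FAKO mouse for 14 of them, mouse 17 was the highest cold control mouse for 17, and mouse 25 was the lowest cold FAKO mouse for 12. Mouse 7 also held the highest muscle, fibroblast and erythroid marker sums of its group (5522, 3609 and 1124 CPM) and the lowest endothelial sum (627 CPM, where its group ran to 837 CPM). Mice 13 and 14 held the lowest endothelial sums of their group (703 and 727 CPM). Of cold FAKO mice, mouse 25 had the lowest mitotic sum (35.4 CPM), 980 CPM of endothelial markers and the highest muscle sum of all mice (7550 CPM). Mouse 23 had the lowest endothelial sum there (781 CPM) at a mitotic sum of 64.8 CPM, and mouse 22 had 973 and 66.0 CPM. Of cold controls, mouse 21 had the lowest mitotic sum (42.1 CPM) at 1012 CPM of endothelial markers. Mouse 17 had the highest (66.9 CPM) at 988 CPM. The part of these cell types in the members' levels was not tested.

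Some marker lists of other cells also moved with cold. Skeletal muscle markers passed for 0 of 8 under either label. They summed to 7.26 to 5522 CPM in warm and 1.24 to 4794 CPM in cold control mice, and to 4.25 to 1513 CPM and 2.06 to 7550 CPM in mice labelled FAKO. Of 10 preadipocyte and fibroblast markers, 1 rose and 1 fell in control mice (1350 to 3609 CPM in warm, 1402 to 2006 CPM in cold). In mice labelled FAKO, 2 rose and 2 fell (1299 to 2242 CPM and 1226 to 2142 CPM). Lymphocyte markers summed to 5.55 to 14.2 CPM in warm and 1.66 to 3.80 CPM in cold control mice (6 of 9 tested markers fell), and to 6.05 to 12.2 CPM and 2.20 to 22.9 CPM in mice labelled FAKO (4 of 9 fell). The 22.9 CPM was mouse 23, and the other 6 cold mice labelled FAKO were at 2.20 to 3.88 CPM, below all warm ones. Cd3d had no count in 1 cold FAKO mouse. Mural markers summed to 594 to 827 CPM in warm and 516 to 606 CPM in cold control mice (5 of 7 fell, 2 rose), and to 626 to 769 CPM and 470 to 561 CPM in mice labelled FAKO (5 fell, 2 rose). Endothelial markers were higher in sum, at 627 to 837 CPM in warm and 899 to 1024 CPM in cold control mice (5 of 10 rose, 5 fell), and at 703 to 929 CPM and 781 to 1042 CPM in mice labelled FAKO (5 rose, 4 fell). Erythroid markers rose in mice labelled FAKO (7 of 7, 290.5 to 611 CPM against 519 to 1500 CPM) and passed for 0 of 7 in control mice (233 to 1124 CPM against 418 to 686 CPM). The nuclear-retained RNAs Neat1, Malat1, Meg3, Kcnq1ot1 and Snhg11 summed to 8966 to 10589 CPM in warm and 14845 to 16276 CPM in cold control mice (3 of 5 rose, 1 fell), and to 10439 to 11797 CPM and 10345 to 13583 CPM in mice labelled FAKO (2 rose, 2 fell). Neutrophil markers summed to at most 6.51 CPM in warm and 5.02 to 10.9 CPM in cold control mice (3 of 5 tested rose, 1 fell), and to 1.69 to 4.14 CPM and 4.72 to 55.5 CPM in mice labelled FAKO (4 of 5 rose, 1 fell). The highest of these was mouse 27, and the next was at 21.2 CPM. Ly6g had no count in any warm mouse. Macrophage markers summed to 236 to 349 CPM in warm and 279 to 357 CPM in cold control mice (4 of 10 rose, 3 fell), and in mice labelled FAKO to medians of 273 CPM and 366 CPM, all cold mice above all warm ones (6 rose, 2 fell). Beside these counts of calls stand the shares of all tested genes. In control mice 31.6% rose and 33.4% fell, and in mice labelled FAKO 33.7% rose and 34.9% fell. Whether these cell types bear on the members was not tested.

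The label itself was then compared at each temperature. At 29 °C, edgeR called no member different by label, while 0.081% of all genes passed (0.0579% higher with the FAKO label, 0.0231% lower). None of the members had an unadjusted p below 0.05, where 7.65% of all genes did. Groups overlapped for every tested member, where 0.174% of all genes were apart upward and 0.0752% downward. The median log2 difference was -0.03, and single members ran from -0.34 to 0.59. Mki67 differed by 0.03 ± 0.23 and Top2a by 0.01 ± 0.23. At 5 °C, again none passed, and 0.139% of all genes did (0.0463% higher, 0.0926% lower). The groups overlapped for every tested member here too, where 0.33% of all genes were apart upward and 0.781% downward. At an unadjusted p below 0.05 stood 2 members (6.06%) and 13.4% of all genes. Of these 2, Ccne1 had a higher level (0.79 ± 0.30, adjusted p = 0.255) and Ccnb1 a lower one (-0.72 ± 0.35, adjusted p = 0.362) in mice labelled FAKO, whose values overlapped those of control mice. DESeq2 called none at either temperature.

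The difference of the cold responses between the labels, which uses all 4 groups again, passed for none of the 33 members and for 1.16% of all genes (0.289% upward, 0.868% downward). The members' median was -0.09. Without adjustment 3 members (9.09%) had a p below 0.05, less than the 16.2% of all genes. The response of Ccnb1 was more negative in mice labelled FAKO (-1.12 ± 0.46, adjusted p = 0.224), and those of Ccne1 (0.86 ± 0.36, adjusted p = 0.236) and Rrm1 (0.31 ± 0.15, adjusted p = 0.293) were more positive. For Mki67 (-0.01 ± 0.35) and Top2a (-0.03 ± 0.35) the standard error leaves room for differences well above the values themselves. DESeq2 called none.

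Other genes of the same pathway were set beside the members. Of 67 further mitotic genes, 60 were tested, and in control mice 28 fell and 4 rose in the cold, while in mice labelled FAKO 26 fell and 2 rose. Beside these stand the shares of all genes, 33.4% downward and 31.6% upward in control mice, and 34.9% and 33.7% in mice labelled FAKO. Their median log2 fold changes, -0.56 and -0.53, lay below those of the members. Sgo2a, a protector of cohesin at the centromere (-2.08 and -2.06), and Ncapd2, a condensin subunit (-1.98 and -1.71), fell, as did Stmn1 (stathmin), which takes microtubules apart (-1.27 and -1.45). Pimreg, a mitotic regulator, rose (1.90 and 2.05), from 0.367 to 0.838 CPM up to 2.02 to 2.85 CPM in control mice. In this list 2 of the 60 tested genes (3.33%) passed the test of the difference between labels, both downward. Of all genes, 1.16% passed it, 0.868% downward. The first was Ska3 of the kinetochore-microtubule link (0.72 in control mice, -0.70 in mice labelled FAKO, adjusted p of the difference 0.0391). The other was Sgo1, shugoshin (0.77 and -0.43, adjusted p of the difference just below 0.05). They are named here after their values were seen.

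Of 23 tested regulators of transcription in the cell cycle, 10 fell and 7 rose in control mice, and 11 fell and 8 rose in mice labelled FAKO. The shares that rose, 30.4% and 34.8%, were near those of all genes (31.6% and 33.7%). The shares that fell, 43.5% and 47.8%, were above those of all genes (33.4% and 34.9%). Rbl1 (p107), the pocket protein of DREAM (-1.91 and -2.03), its subunit Lin9 (-1.85 and -1.93), the E2F partner Tfdp2 (-1.57 and -1.18) and Mybl1 (A-Myb, -1.53 and -1.57) fell most. E2f1 fell (-0.86 and -1.08), from 0.811 to 1.62 CPM to 0.346 to 0.935 CPM in control mice. Foxm1, the main activator of mitotic genes, was at 0.734 to 1.78 CPM in warm and 0.461 to 1.25 CPM in cold control mice and did not pass under either label (-0.48 and -0.46). Mybl2 (B-Myb) was at -0.17 in control mice, where it did not pass, and it fell in mice labelled FAKO (-0.68).

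**Figure D5:**
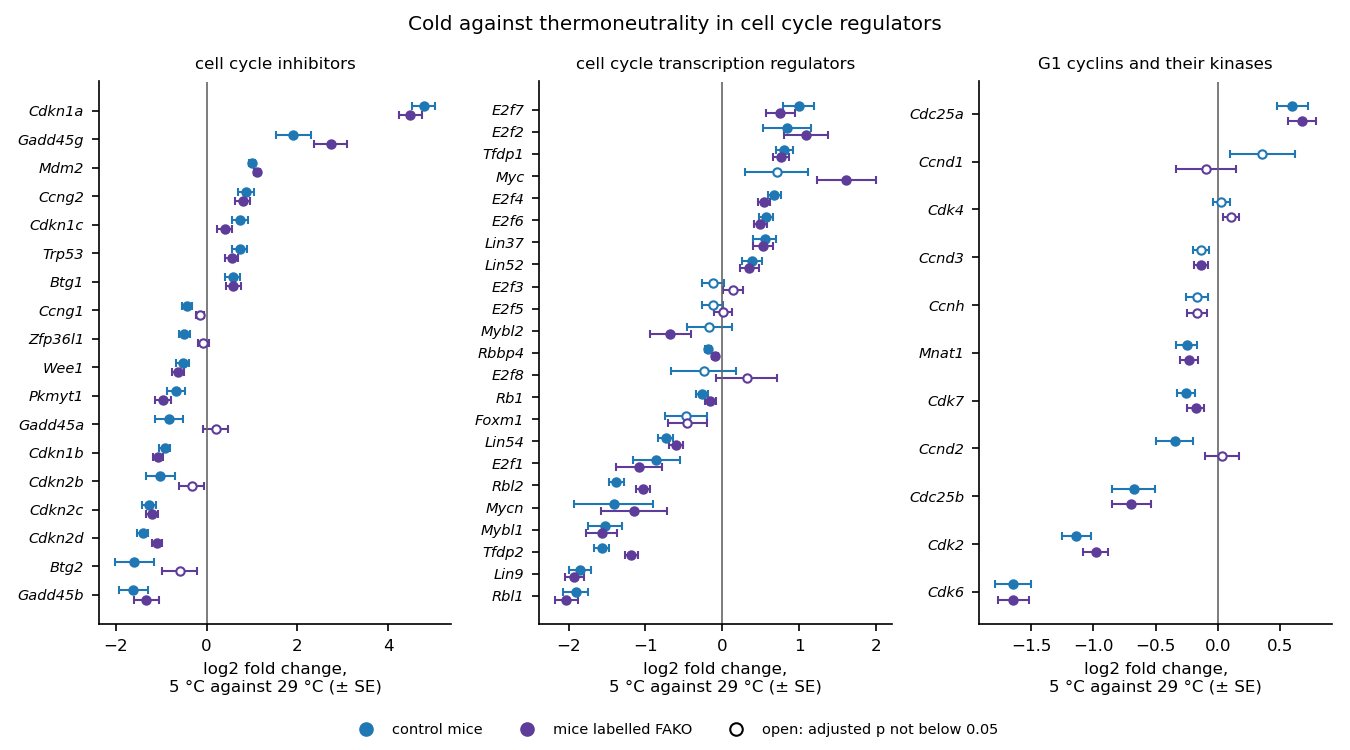
Log2 fold change (x axes, ± SE, scales differ) at 5 °C against 29 °C of cell cycle inhibitors, transcription regulators and G1 cyclins with their kinases, in control mice and mice labelled FAKO. Cdkn1a lies farthest to the right at 4.78 and 4.49, and Cdk6 and Rbl1 are the lowest of their panels.

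Of the 18 tested inhibitors of the cell cycle, all passed in control mice, 7 upward (38.9%) and 11 downward (61.1%). In mice labelled FAKO 7 rose (38.9%) and 6 fell (33.3%). The shares of all genes were 31.6% upward and 33.4% downward in control mice, and 33.7% and 34.9% in mice labelled FAKO. Cdkn1a (p21), which blocks the cyclin-dependent kinases, had the largest change of all these genes. It was at 5.69 to 11.0 CPM in warm control mice and 199.6 to 257 CPM in cold ones, 27.5-fold higher (4.78 ± 0.26, adjusted p = 1.76e-14), and it rose 22.5-fold in mice labelled FAKO (4.49 ± 0.25, adjusted p = 1.76e-14). The stress-induced Gadd45g rose as well (1.91 and 2.73), while its paralog Gadd45b fell (-1.61 and -1.33). Btg2, an antiproliferative gene, fell in control mice (-1.59) and did not pass in mice labelled FAKO (-0.60). Cdkn1b (p27), the inhibitor kept in resting cells, fell (-0.93 and -1.07).

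Of 11 G1 cyclins, kinases and phosphatases, 6 fell (54.5%) and 1 rose (9.09%) under each label. Of all genes, 33.4% fell and 31.6% rose in control mice, and 34.9% fell and 33.7% rose in mice labelled FAKO. Cdk6 (-1.64 under both) and Cdk2, the partner of cyclin E (-1.14 and -0.98), fell, as did the phosphatase Cdc25b (-0.67 and -0.70). Cdc25a, which opens the way into S phase, rose (0.59 and 0.67). Ccnd1, cyclin D1, was at 11.0 to 25.4 CPM in warm and 16.2 to 25.9 CPM in cold control mice and did not pass (0.36 and -0.10). None of the pathway lists, apart from the 2 genes named above, held a gene that passed between labels at either temperature or in the difference of the responses.

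Some members share sequence with other genes, and the source of their reads is uncertain to that extent. Kif20a overlaps Cdc23 on the opposite strand over 29.3% of its exon bases, Ccne2 overlaps Ints8 (17.4%), Ccna2 overlaps Exosc9 (12.5%) and Prc1 overlaps Rccd1 (11.1%). The libraries kept the strand, but the strand setting of the counting is not given in the sources used here. Ccnb1 has near-identical pseudogenes (Ccnb1-ps, 99.2% identity over 1287 bases), and Mad2l1 resembles Gm42430 (95.4% over 454 bases). Tyms, at a mean of 5.39 CPM, resembles Tyms-ps (95.6% over 677 bases, 0.0106 CPM) and shares a further stretch with many transcripts. These include Reep3 (97.7% over 355 bases, 89.5 CPM), Map3k2 (95.5% over 357 bases, 70.3 CPM) and Wdr59 (96.4% over 358 bases, 15.6 CPM). Whether reads of these genes were counted for Tyms was not tested.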

How the data were processed

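RNA of BAT from 26 mice was sequenced as rRNA-depleted, stranded total RNA. For the deposited table of raw counts per gene, the authors used STAR 2.5.2b on mm10 and featureCounts 1.5.2 with a GENCODE annotation. Here, symbols, coordinates and exon lengths came from GENCODE M21 (GRCm38), which named 50376 of 50686 genes. Groups were taken from the labels. In R 4.3.3, edgeR 4.0.16 was run on all 17286 genes that filterByExpr kept (TMM factors, 1 model with a term per group, legacy quasi-likelihood test), with Benjamini-Hochberg adjustment and a threshold of 0.05. The SE is the log2 fold change over the square root of F. Contrasts were cold within each label, label at each temperature, and how the cold responses differed. All 73 pairs of mice in a group differed by more than sampling noise (lowest chi-square per gene 4.69). The steps were tested on simulated data. Depth limits precision mainly for members below 1 CPM.

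The members and all lists were chosen with earlier results of these data known. All members are named. Levels (each of the 5 cold control mice, and the lowest, median and highest of the groups of 7) are given for Mki67, Top2a, Cdk1, Ccnb1, Ccne1, Ccne2 and Rrm2, and, in each cold comparison, for the 4 members that rose most and the 4 that fell most past the threshold. From each further list, the text names Foxm1, Mybl2, E2f1, Cdkn1a, Cdkn1b and Ccnd1 where they belong to it, and the 4 genes past the threshold that changed most in control mice and averaged 1 CPM or more. Alternatives were DESeq2 1.42.0, other scalings and filters, robust empirical Bayes, fits restricted to the groups compared, and leaving out each mouse.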

Additional observations from a re-analysis of the deposited data

Results flagged for a closer look

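In 10 of 144 sets of mice examined (each member and each sum, group by group), the highest or lowest mouse stood apart from the rest of its group by more than Dixon's 95% limit. Chance gives about 1 in 20 for independent, normally distributed sets. The sets here share mice, and the sums contain the members, so that rate is only a rough guide. Among warm control mice, mouse 7 was apart as the lowest for Top2a (3.30 CPM), for the sum of all 34 members (78.9 CPM) and for the S-phase sum (32.0 CPM). The other mice were apart as the highest of their group. In warm mice labelled FAKO these were Cdca3 in mouse 10 (1.05 CPM) and Cenpa in mouse 12 (8.41 CPM). In cold control mice they were Ccne1 in mouse 21 (0.634 CPM) and Cdc20 in mouse 17 (1.88 CPM). In cold mice labelled FAKO they were Kif11 (3.56 CPM) and Ect2 (1.68 CPM) in mouse 22 and Anln in mouse 23 (3.14 CPM).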

How the results depend on the processing

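No member changed direction past the threshold under any alternative. The members that fell in mice labelled FAKO numbered 22 with library size alone and 9 with at least 10 counts in every mouse (19 members tested), against 14. Leaving out each mouse in turn, the members that fell numbered 8 (without mouse 16 or 19) to 13 (without mouse 7) in control mice and 10 (without mouse 28) to 17 (without mouse 13) in mice labelled FAKO, and those that rose 3 to 3 and 2 to 3. The members' median log2 fold change was -0.49 to -0.27 for cold in control mice, -0.56 to -0.33 for cold in mice labelled FAKO, -0.09 to 0.09 for the label at 29 °C, -0.12 to 0.01 for the label at 5 °C and -0.15 to 0.04 for the difference, with 0 members past the threshold in the last 3 in every fit. Other settings than leaving out a mouse took 2 member calls in control mice, Rrm1 with library size alone (0.27, adjusted p = 0.0557) and Nusap1 with no filter, and 6 in mice labelled FAKO, namely Rrm2, Ccnb1, Cdca3 and Tpx2 with no filter, Cdca3 by DESeq2 and Ccnb1 in the fit to only the groups compared. Over all genes, the number past the threshold was 14 for the label at 29 °C (9 to 48 under the other settings), 24 at 5 °C (5 to 197) and 200 for the difference (27 to 488), the highest always by DESeq2. Leaving out 1 mouse, these ran from 7 (without mouse 2) to 93 (without mouse 7) at 29 °C, from 7 (without mouse 19) to 100 (without mouse 22) at 5 °C and from 49 (without mouse 8) to 371 (without mouse 7) for the difference. The fit to only the groups compared gives no value for the difference. No paired analysis was possible because the mouse numbers in the labels are not shared between groups. Members below 1 CPM rest on few counts, so small changes in them could be missed. Cdca3, at a mean of 0.741 CPM, passed at -0.73 in control mice and -0.59 in mice labelled FAKO.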
